A study of Mus musculus with 18 samples.

Results

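The transcriptome of mouse CD8 T cells restimulated with PMA and ionomycin was set against that of resting CD8 T cells, both without actinomycin D, the inhibitor of RNA synthesis used in other libraries of the study. A gene entered where its mean over the stimulated and the resting library was at least 50 size-factor scaled reads, which 10727 of the 43432 genes in the table did. Another 8791 genes had a value above 0 in either library but a lower mean. The stimulated CD8 cells and the resting CD8 cells were each represented by 1 RNA-seq library of 8 in the series, so no difference below has a replicate check or a p-value.

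All cells were T cells of C57BL/6 mice (written C57BL/6 J in the study's methods). No source used here states the age or sex of the mice. CD8 T cells were grown with IL-12 and IL-2 and activated on plates carrying antibodies to CD3 and CD28. The labels give 5 days of such growth, whereas in the study's methods the cells were moved off the antibodies onto uncoated dishes partway through culture. In the last 4 h the stimulated CD8 cells received PMA and ionomycin, while the resting CD8 cells received fresh medium alone. Th2 cells, used here only for comparison, were CD4 T cells grown with IL-4, IL-2 and an antibody to interferon-γ and were divided into stimulated and resting cells in the same way. The CD8 and Th2 libraries with actinomycin D, which blocks transcription, carried the same labels plus the drug. In the study's methods for RNA decay the drug was added after the 4 h of PMA and ionomycin, for several times of up to 4 h more, and which of these times the sequenced libraries had is not stated. Before lysis, cells were irradiated with ultraviolet light of 254 nm at 8000 mJ, and polyadenylated RNA came from lysate that the study's methods describe as cleared of nuclei, from cells pooled from several mice. The cells had therefore been activated before the 4 h period began, and "resting" refers to that period only.

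PMA activates protein kinase C and Ras signalling directly, and ionomycin lets calcium into the cell. Together they imitate the signals that follow engagement of the T cell receptor without using the receptor itself. In T cells these signals reach the NFAT, AP-1 and NF-κB transcription factors, which switch on immediate-early regulators and then cytokines and chemokines. CD8 effector cells are known for killing through perforin and granzymes and for secreting interferon-γ, TNF and the chemokines CCL3, CCL4 and XCL1.

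Depth was close to equal, with 24154849 gene reads in the stimulated CD8 library and 24687869 in the resting one, against 24154849 to 31042504 over all 8 RNA-seq libraries. A single read was worth 1.19 value units in the stimulated library and 1.04 in the resting library. Cd8a had 12771 in stimulated and 10516 in resting cells, Cd8b1 had 6383 in stimulated and 6269 in resting cells, and Cd3e had 4908 in stimulated and 5259 in resting cells, so that the defining CD8 T cell genes were high in both libraries. Most markers of other cells were lower, but not all were near 0, and the B cell marker Ighm exceeded Cd8b1 and Cd3e in resting cells. Of 9 myeloid markers Lyz2, S100a8, S100a9 and Mpo were at 0 in both libraries and 1, Cd68 (77.05 stimulated, 83.98 resting), passed the minimum mean of 50. The summed level of the list was 133 in stimulated and 129 in resting cells. Of 12 erythroid and stromal markers 7 were at 0 in both, among them Hba-a1, Hbb-bs, Col3a1 and Cdh5, and 1 passed, Pecam1 (318 of a list sum of 352 in stimulated and 479 of 483 in resting cells). Of 8 NK cell markers 3 passed, Klrb1c, Fcer1g and Itga2, with a list sum of 431 in stimulated and 275 in resting cells, while Ncr1 had 2.37 in stimulated and 1.04 in resting cells. Of 8 B cell markers Cd79b (102 stimulated, 153 resting) and Ighm, the heavy chain gene, with 3226 in stimulated and 7549 in resting cells, passed. Of 9 markers of antigen-presenting cells 3 passed, Batf3 (910 stimulated, 627 resting), H2-Ab1 (680 stimulated, 555 resting) and Cd74, the class II invariant chain, with 699 in stimulated and 145 in resting cells. What these transcripts contribute to other differences was not tested. Mitochondrially encoded RNAs held 1.45% of all values in stimulated and 1.76% in resting cells.

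Stimulation raised more genes than it lowered. Of the 10727 genes, 801 were at least 2-fold higher in stimulated than in resting cells (7.47%) and 501 at least 2-fold lower (4.67%), while 9425 (87.9%) stayed within 2-fold. "Rose" and "fell" are used below only for genes past that 2-fold limit on the log2(value + 1) scale, which understates the change of low genes. The imbalance was steeper among large differences. At least 4-fold, 256 genes rose and 47 fell, and at least 16-fold, 45 rose and 1 fell. The median difference over all genes was 0.03 on the log2 scale, with 0.37 at the 75th percentile and 1.29 at the 95th, against -0.32 at the 25th and -0.96 at the 5th. The split between higher and lower genes depended on the scaling. It was 630 and 733 when each library was scaled to its total, with a median of all genes of -0.13, and 459 and 1382 when scaled to the ribosomal protein genes, with a median of -0.38. Counting error alone was small. For each of the 801 and 501 genes the 95% exact binomial (Clopper-Pearson) interval of the ratio, computed from the recovered reads, lay wholly on its side of 1, and for 607 and 269 of them it lay wholly past 2-fold. Such intervals leave out all biological and preparation error. They also treat reads as independent, although reads without molecular identifiers can be copies of 1 molecule.

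**Figure D1:**
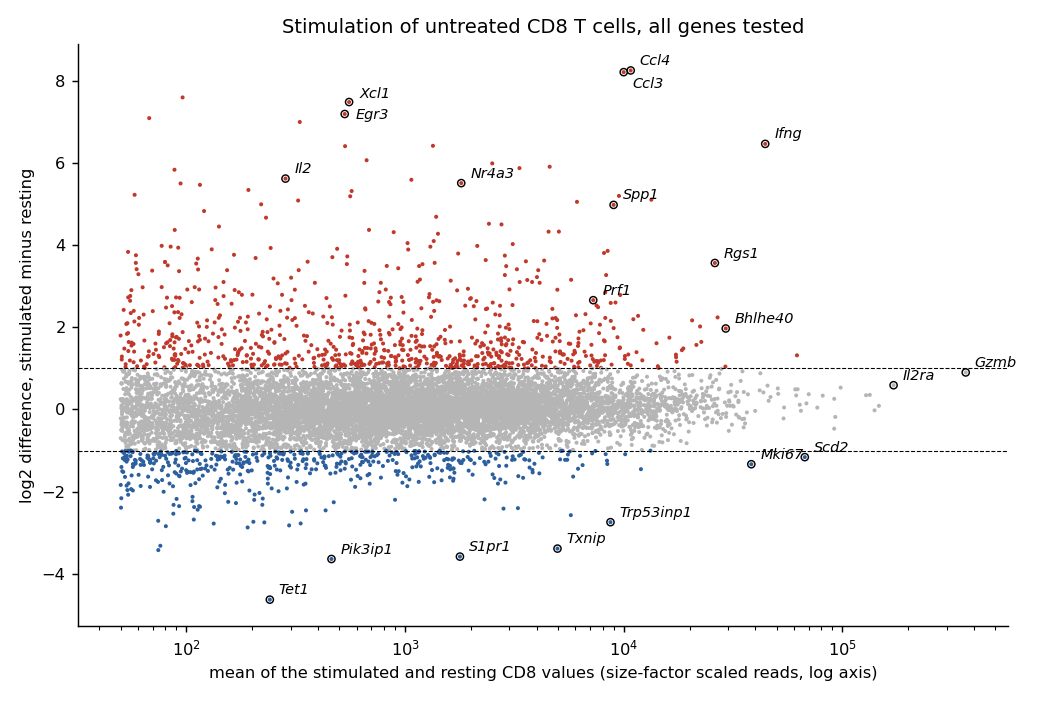
Each point is 1 of the 10727 genes, placed by its mean over the stimulated and resting CD8 libraries (size-factor scaled reads, log axis) and its log2 difference, stimulated minus resting. The 801 genes at least 2-fold higher are red, the 501 at least 2-fold lower are blue, and the dashed lines mark 2-fold, with Ccl4 highest at 8.25 and Tet1 lowest at -4.63.

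The genes that rose started from a modest level. Their median value was 1226 in stimulated and 352 in resting cells, against 989 and 927 for all genes, and the genes that fell had medians of 165 and 438. The 801 genes took 10.04% of all values in stimulated cells and 3.29% in resting cells, while the 501 took 1.17% and 3.27%. In bulk RNA a change in the share of cells that carry a transcript and a change in the amount per cell cannot be told apart. At the limits, Rnf149 (1733 stimulated, 866 resting) was just inside the higher group and Slc2a1 (6581 stimulated, 3292 resting) just outside it, AI480526 (545 stimulated, 1093 resting) was just inside the lower group and Dck (2099 stimulated, 4194 resting) just outside it. Abhd1 (78.2 stimulated, 21.8 resting) just passed the minimum mean of 50, and Xaf1 (28.4 stimulated, 71.5 resting) just missed it.

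The largest rise belonged to the inflammatory chemokine genes Ccl4 and Ccl3, neighbours on chromosome 11 that encode MIP-1β and MIP-1α. Ccl4 (mm10 chr11:83662584-83664683) had 21439 in stimulated and 69.5 in resting cells, a 309-fold difference (95% interval for counting error, 243 to 398). Ccl3 had 19911 in stimulated and 66.4 in resting cells, which was 300-fold (235 to 390). Xcl1, lymphotactin, which draws in XCR1-bearing dendritic cells, had 1104 in stimulated and 5.18 in resting cells, or 213-fold, with a wide interval of 90.9 to 657 because few reads were seen at rest. Ccl1 had 192 in stimulated cells and no read in resting cells, and set against a floor of 3 counts in the resting library it was at least 61.7-fold higher. Smaller rises were seen for Ccl9 (207 stimulated, 18.7 resting), Cxcl10 (203 stimulated, 25.9 resting) and Ccl5 (370 stimulated, 99.5 resting). The homeostatic chemokine Ccl25 (134 stimulated, 117 resting) and Ccl22 (74.7 stimulated, 45.6 resting) stayed within 2-fold. Of 20 chemokine genes listed, 9 passed the minimum mean of 50. Ccl1, Xcl1, Ccl9, Cxcl10 and Ccl22 were under 50 at rest and passed through the stimulated value, so the filter itself favours rises here. Of these 9 genes 7 rose and none fell, against 7.47% and 4.67% of all genes. Their median was 3.41 on the log2 scale, against 0.03 for all genes.

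Ifng, encoding interferon-γ, had 87665 in stimulated and 993 in resting cells, an 88.3-fold difference (82.8 to 94.2), and took 0.306% of all values in stimulated and 0.00388% in resting cells. About 19.9% of its 50-nt words also occur elsewhere among gene exons. Per kilobase of exon it ranked 6 of all genes in stimulated cells and 1815 in resting cells. Other mediators of inflammation rose as well. Tnf had 9617 in stimulated and 478 in resting cells (20.1-fold), and Lta, encoding lymphotoxin α, had 15158 in stimulated and 1081 in resting cells (14.02-fold). Ltb, encoding the membrane partner of lymphotoxin α, had 13560 in stimulated and 2896 in resting cells (4.68-fold). The growth factor of myeloid cells Csf2 had 1112 in stimulated and 27.0 in resting cells, and Il3 had 226 in stimulated and 4.15 in resting cells.

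Il2, the T cell growth factor, had 557 in stimulated and 10.4 in resting cells, a 53.7-fold difference (28.96 to 113). Il10, which encodes an anti-inflammatory cytokine, had 15785 in stimulated and 1088 in resting cells (14.5-fold). Per kilobase of exon the level of Il10 in stimulated cells was 12050, against 487 for Il2 and 67695 for Ifng. Il21 (596 stimulated, 56.0 resting), Il24 (1164 stimulated, 137 resting) and Il13 (109 stimulated, 9.33 resting) rose as well. Growth factors outside the classical cytokines moved with them: Pdgfb, a platelet-derived growth factor subunit, had 9013 in stimulated and 149 in resting cells (60.4-fold), Spp1, encoding osteopontin, had 17410 in stimulated and 552 in resting cells (31.6-fold), Lif had 5319 in stimulated and 396 in resting cells (13.4-fold), and Hbegf, a ligand of the EGF receptor, had 2671 in stimulated and 103 in resting cells (26.0-fold). Of 35 cytokine and growth factor genes listed, 24 passed the minimum mean. Some, such as Il2 and Il13, passed only through the stimulated value, so the filter itself favours rises here. Of these 24 genes 19 rose and none fell, against 7.47% and 4.67% of all genes, with a median of 3.58 on the log2 scale. Members within 2-fold included Vegfa (1713 stimulated, 1473 resting), Il16 (3134 stimulated, 3384 resting) and Mif (1310 stimulated, 749 resting, with 34.1% of its 50-nt words shared with other genes).

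**Figure D2:**
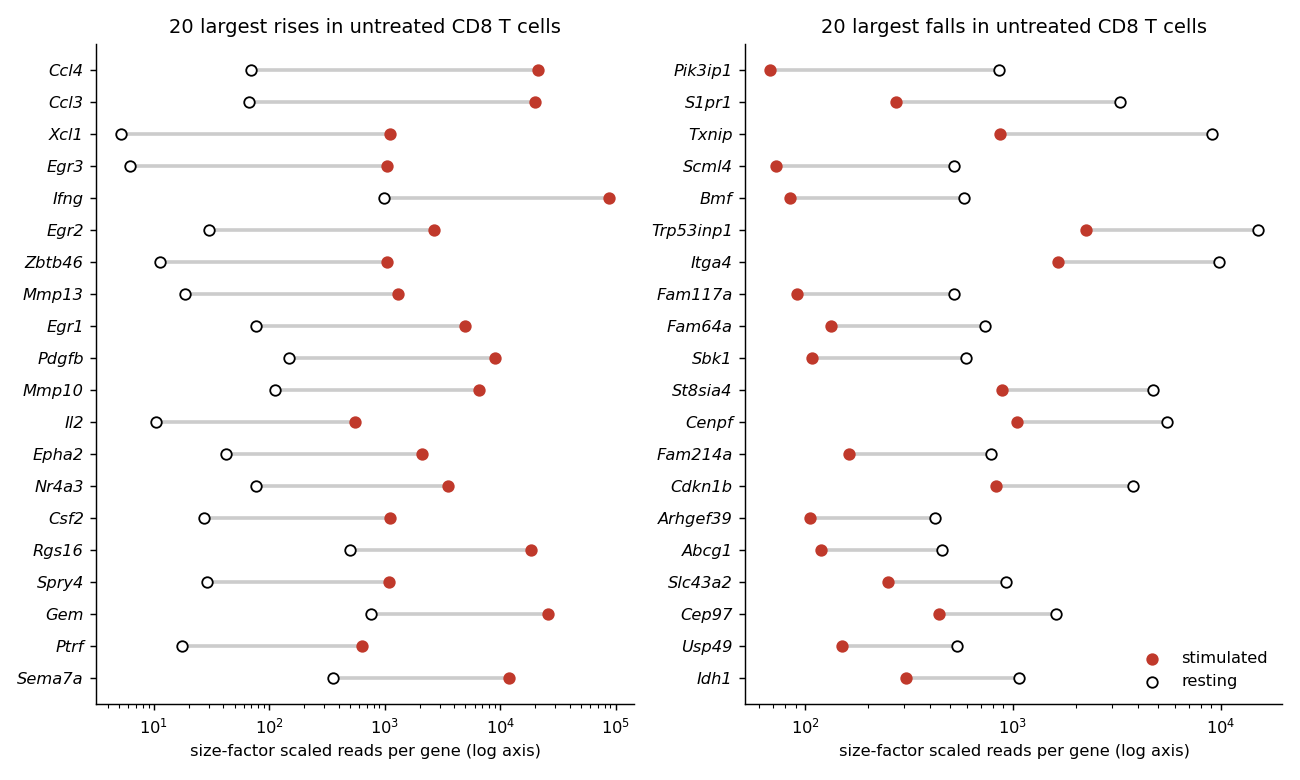
Values of the 20 largest rises (left) and the 20 largest falls (right) among named genes with a mean of at least 250 in CD8 T cells, in size-factor scaled reads on a log axis. Red points are the stimulated library and open points the resting library, 1 library each, and the rises span up to 309-fold (Ccl4) while the falls reach 12.6-fold (Pik3ip1).

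The immediate-early regulators of the EGR and NR4A families were among the sharpest rises. EGR factors are zinc finger activators and NAB proteins are the corepressors they induce, and NR4A proteins are orphan nuclear receptors switched on by receptor signalling. Egr3 had 1053 in stimulated and 6.22 in resting cells (169-fold, 77.4 to 462), Egr2 had 2650 in stimulated and 30.1 in resting cells (88.2-fold), and Egr1 had 4929 in stimulated and 76.7 in resting cells (64.2-fold). Nab2 rose 8.92-fold to 10324, against 1158 in resting cells, while Nab1 (6754 stimulated, 5634 resting) stayed within 2-fold, and 42.2% of the exon bases of Nab2 lie opposite another gene. Nr4a3 had 3535 in stimulated and 76.7 in resting cells (46.1-fold), Nr4a1 had 1936 in stimulated and 116 in resting cells (16.7-fold), and Nr4a2 had 2104 in stimulated and 234 in resting cells (8.98-fold). Thus 4 of 5 EGR and NAB genes and 3 of 3 NR4A genes rose, against 7.47% of all genes.

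Among AP-1 and related bZIP factors 8 of 15 rose and 1 fell, against 7.47% and 4.67% of all genes. Fosl1 had 427 in stimulated and 12.4 in resting cells, Maff had 917 in stimulated and 60.1 in resting cells, and Junb had 3050 in stimulated and 408 in resting cells. Fos had 128 in stimulated and 11.4 in resting cells, with a level per kilobase that ranked 8726 in stimulated cells, and Fosb had 85.3 in stimulated and 27.0 in resting cells. Jun (1331 stimulated, 534 resting) and Jund (3152 stimulated, 1037 resting) rose 2.49-fold and 3.04-fold. Batf (802 stimulated, 438 resting) and Fosl2 (4180 stimulated, 2138 resting) stayed just within 2-fold, and Jdp2, encoding a repressor of AP-1 sites, fell to 40.3 in stimulated cells, against 94.3 in resting cells. More than 50% of the exon bases of Fosl1 (57.2%) and Jund (52.6%) lie opposite another gene, so their values are uncertain if strand was not used in counting.

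NF-κB genes rose across the list, subunits and regulators alike. Of 23 measured, 19 rose and none fell, against 7.47% and 4.67% of all genes, with a median of 2.29 on the log2 scale. The subunit genes Relb (1703 stimulated, 157 resting), Rel (5181 stimulated, 536 resting), Nfkb2 (6505 stimulated, 732 resting) and Nfkb1 (32127 stimulated, 10817 resting) rose 10.9-fold, 9.67-fold, 8.89-fold and 2.97-fold, and Rela, at 3253 in stimulated and 1559 in resting cells, rose 2.09-fold. Genes of the IκB family, whose proteins bind these subunits and are not all inhibitors, rose too. Nfkbie had 2211 in stimulated and 190 in resting cells, and Nfkbia 7239 stimulated and 775 resting. Nfkbid had 3428 in stimulated and 447 in resting cells, and Nfkbiz 2129 stimulated and 189 resting. Tnfaip3, encoding the ubiquitin-editing brake A20 (12789 stimulated, 2216 resting), and the adaptor Traf1 (15729 stimulated, 2590 resting) rose as well. Upstream members differed among themselves. Malt1 (24790 stimulated, 9833 resting) and Bcl10 (3390 stimulated, 1107 resting) rose, while the deubiquitinase gene Cyld (4036 stimulated, 5875 resting) stayed within 2-fold.

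Of 11 NFAT and calcineurin genes 2 rose and 1 fell, against 7.47% and 4.67% of all genes. Nfatc1, the autoregulated member, had 6416 in stimulated and 1986 in resting cells (3.23-fold), and Nfat5 had 24515 in stimulated and 10156 in resting cells. Nfatc2 (9120 stimulated, 5836 resting), Nfatc3 (5623 stimulated, 9660 resting) and the calcineurin subunit Ppp3ca (4230 stimulated, 2465 resting) stayed within 2-fold. Rcan1, encoding a regulator of calcineurin, fell to 173 in stimulated cells, against 359 in resting cells. The list median, 0.31, became -0.10 with scaling to the ribosomal protein genes.

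Negative feedback regulators of receptor signalling rose too. Phosphatases that switch off MAP kinases were among them, with Dusp6 at 5325 in stimulated and 474 in resting cells (11.2-fold), Dusp4 at 5985 in stimulated and 697 in resting cells, Dusp5 at 14440 in stimulated and 2005 in resting cells, and Dusp2 at 14947 in stimulated and 2478 in resting cells. The Sprouty gene Spry4, which encodes an inhibitor of Ras signalling, had 1093 in stimulated and 29.03 in resting cells. Together 12 of 16 dual-specificity phosphatase and Sprouty genes rose and 1 fell, against 7.47% and 4.67% of all genes. The member that fell, Dusp10, had 115 in stimulated and 270 in resting cells. Dusp1, an early gene of many cells, had 277 in stimulated and 173 in resting cells.

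RGS proteins shorten signals from G protein-coupled receptors, and genes for several of them rose. Rgs1 had 48113 in stimulated and 4066 in resting cells (11.8-fold), Rgs16 had 18504 in stimulated and 504 in resting cells (36.7-fold), and Rgs2 had 2688 in stimulated and 138 in resting cells (19.5-fold). Cd69, an early activation marker that retains cells in tissue, had 4318 in stimulated and 711 in resting cells. Among 32 signalling brakes 14 rose and none fell, against 7.47% and 4.67% of all genes. Those within 2-fold included the ubiquitin ligase genes Cblb (5438 stimulated, 8321 resting) and Itch (4811 stimulated, 4123 resting) and the kinase gene Csk (4415 stimulated, 3487 resting). Tagap (8628 stimulated, 429 resting) rose 20.1-fold, but other genes hold 47.6% of its 50-nt words.

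Promoters of a few genes with large changes are shown, with matches to letters known from activation and cell cycle promoters or to the TATA box. The windows are the 250 bases before the RefSeq start in GRCm38.p6, the assembly behind mm10, and they were chosen after values and matches were seen. Capitals mark matches on either strand. The letters searched were TGANTCA for the AP-1 motif and TGACGTCA for the cAMP response element CRE. For the core bound by NFAT they were GGAAAA, and for forkhead factors of the FOXO group GTAAACA. The cell cycle element CHR was searched as TTTGAA, the box of NF-Y as CCAAT and the TATA box as TATAAA, and the NF-κB motif is given by name.
Il2 promoter (chr3:37125955-37126204, minus strand): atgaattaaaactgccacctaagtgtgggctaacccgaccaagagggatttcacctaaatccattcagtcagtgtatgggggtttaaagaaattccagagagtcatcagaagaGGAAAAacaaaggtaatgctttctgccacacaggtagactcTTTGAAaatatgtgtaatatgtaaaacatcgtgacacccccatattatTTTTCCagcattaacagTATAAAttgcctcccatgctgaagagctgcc
Ifng promoter (chr10:118440796-118441045, plus strand): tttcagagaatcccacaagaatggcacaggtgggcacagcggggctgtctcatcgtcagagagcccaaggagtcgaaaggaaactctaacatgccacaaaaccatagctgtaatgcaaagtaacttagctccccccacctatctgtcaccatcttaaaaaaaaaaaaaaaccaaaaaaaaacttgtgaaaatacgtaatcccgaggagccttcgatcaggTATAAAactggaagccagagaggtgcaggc
Mmp10 promoter (chr9:7502092-7502341, plus strand): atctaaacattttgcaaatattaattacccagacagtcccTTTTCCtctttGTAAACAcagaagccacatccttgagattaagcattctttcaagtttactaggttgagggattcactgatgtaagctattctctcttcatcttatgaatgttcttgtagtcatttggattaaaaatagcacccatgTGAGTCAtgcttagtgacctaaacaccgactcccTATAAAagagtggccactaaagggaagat
Mmp13 promoter (chr9:7272264-7272513, plus strand): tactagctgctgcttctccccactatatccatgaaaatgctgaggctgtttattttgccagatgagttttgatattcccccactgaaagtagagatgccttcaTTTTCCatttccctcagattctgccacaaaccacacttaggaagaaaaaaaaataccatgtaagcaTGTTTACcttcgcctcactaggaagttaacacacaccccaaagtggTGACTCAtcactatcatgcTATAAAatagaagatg
Txnip promoter (chr3:96557707-96557956, plus strand): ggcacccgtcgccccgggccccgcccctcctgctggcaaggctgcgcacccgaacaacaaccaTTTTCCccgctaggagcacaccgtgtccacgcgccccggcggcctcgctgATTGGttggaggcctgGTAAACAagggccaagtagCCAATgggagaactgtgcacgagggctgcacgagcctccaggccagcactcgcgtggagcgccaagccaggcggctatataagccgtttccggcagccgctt
Cenpf promoter (chr1:189688087-189688336, minus strand): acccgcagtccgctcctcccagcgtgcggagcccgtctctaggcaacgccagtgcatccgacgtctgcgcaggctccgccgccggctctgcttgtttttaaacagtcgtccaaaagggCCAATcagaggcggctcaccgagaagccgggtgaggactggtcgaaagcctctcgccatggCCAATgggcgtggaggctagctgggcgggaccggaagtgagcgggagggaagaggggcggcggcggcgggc

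In the Il2 window a match to the NFAT core began 137 bases before the start and another 48 bases before it, with a CHR match at -96 and a TATA box at -31. The Ifng window held a TATA box at -30 and no match to the other letters searched. The metalloproteinase genes Mmp10 and Mmp13 each held an AP-1 match (TGAGTCA at -63 and TGACTCA at -35) and a TATA box, as well as an NFAT match (-210 and -147) and a FOXO match (-199 and -81). Txnip held a FOXO match at -121 between CCAAT matches at -137 and -102 and an NFAT match at -187, and Cenpf held CCAAT matches at -132 and -71. Over all 27025 promoters of the RefSeq table, a match was found in 6.87% for AP-1, 20.6% for the NFAT core, 3.09% for FOXO, 34.5% for CCAAT, 12.97% for the TATA box, 1.62% for CRE, 16.3% for CHR and 3.75% for NF-κB. Shares in the genes that rose or fell are not given, because a promoter was at hand for only 73.8% and 75.2% of them and 79.2% of all genes tested, and the comparison is void at that coverage. Mmp10 had 6555 in stimulated and 111 in resting cells (59.1-fold) and Mmp13 had 1315 stimulated and 18.7 resting (70.4-fold). Mmp9, another matrix-degrading enzyme, had 5284 in stimulated and 232 in resting cells (22.8-fold). Other genes among the 20 largest rises were Gem, a Ras-like GTPase, with 25970 in stimulated and 755 in resting cells (34.4-fold), the semaphorin gene Sema7a with 11859 stimulated and 357 resting (33.3-fold), and the ephrin receptor gene Epha2 with 2093 stimulated and 42.5 resting (49.2-fold).

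Ligands and receptors of the TNF family rose selectively. Tnfsf11, encoding RANK ligand, had 1689 in stimulated and 84.0 in resting cells (20.1-fold), Tnfsf14, encoding LIGHT, had 663 in stimulated and 53.9 in resting cells, and Cd40lg had 468 in stimulated and 54.9 in resting cells. Fasl, the death ligand, had 1389 in stimulated and 1041 in resting cells and stayed within 2-fold. Of 8 ligand genes 6 rose. Among 14 receptor genes 4 rose and 1 fell, against 7.47% and 4.67% of all genes. The costimulatory receptor genes Tnfrsf4 (OX40; 7762 stimulated and 1671 resting) and Tnfrsf9 (4-1BB; 27578 stimulated and 9856 resting) rose 4.64-fold and 2.80-fold, whereas Tnfrsf8, encoding CD30, fell to 4790 in stimulated cells, against 12019 in resting cells.

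Genes of inhibitory receptors and their ligands rose. Cd274, encoding PD-L1, had 7999 in stimulated and 648 in resting cells (12.3-fold), and Pdcd1lg2, encoding PD-L2, had 1452 in stimulated and 236 in resting cells. The receptor gene Pdcd1 had 5288 in stimulated and 908 in resting cells (5.82-fold), Havcr2 (TIM-3) 4618 stimulated and 1162 resting, Tigit 4654 stimulated and 1547 resting, and Lag3 7094 stimulated and 3182 resting. Cd28 had 27540 in stimulated and 31188 in resting cells, Ctla4 24847 stimulated and 24238 resting, and Icos 21989 stimulated and 19904 resting, all high and within 2-fold. Cd226, encoding the activating counterpart of TIGIT, fell to 501 in stimulated cells, against 1467 in resting cells. In this list 7 of 20 genes rose and 1 fell, against 7.47% and 4.67% of all genes.

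Gzmb, encoding granzyme B, had 476654 in stimulated and 255366 in resting cells, the highest level per kilobase of exon in both libraries, and differed by 0.90 on the log2 scale, within the 2-fold limit. Gzma (5607 stimulated, 2845 resting), Nkg7 (26407 stimulated, 14758 resting) and Gzmk (577 stimulated, 696 resting) also stayed within it. Prf1, encoding perforin, was the main exception among effector molecules with 12517 in stimulated and 1981 in resting cells (6.32-fold, 6.02 to 6.64). Gzmc had 16554 in stimulated and 6301 in resting cells. Protective serpin genes rose, with Serpinb9, the granzyme B inhibitor, at 15044 in stimulated and 1558 in resting cells (9.65-fold) and Serpinb6b at 8123 in stimulated and 1799 in resting cells. Of 20 genes 6 rose and none fell, against 7.47% and 4.67% of all genes.

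Transcription factors of effector and memory T cells split. Irf4, which scales with the strength of receptor signalling, had 44308 in stimulated and 9383 in resting cells (4.72-fold), Bhlhe40 had 46602 in stimulated and 11895 in resting cells, Runx2 had 5301 in stimulated and 699 in resting cells, and Irf8 had 18149 in stimulated and 3960 in resting cells. Id2 (8550 stimulated, 2826 resting) and Id3 (770 stimulated, 135 resting), inhibitors of E proteins, both rose. Eomes had 715 in stimulated and 283 in resting cells, while Tbx21, encoding T-bet, had 5985 in stimulated and 3351 in resting cells and stayed within 2-fold. Myb (1661 stimulated, 5265 resting), Ikzf2 (1025 stimulated, 2879 resting), Rora (655 stimulated, 1635 resting) and Nfil3 (1345 stimulated, 3254 resting) fell. The counts were 10 higher and 4 lower of 31, against 7.47% and 4.67% of all genes. The list median of 0.09 turned negative under scaling to the total (-0.07), to ribosomal protein genes (-0.32) and by quantiles (-0.07).

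Components of the T cell receptor changed unevenly. Cd3e and Cd3g were within 2-fold (12237 stimulated and 14069 resting for Cd3g), while the adaptor Lcp2, encoding SLP-76, had 33588 in stimulated and 7476 in resting cells (4.49-fold). Rasgrp1, which couples diacylglycerol to Ras, fell to 2858 in stimulated cells, against 8872 in resting cells, and Themis fell to 6408, against 17548. The list of 30 had 7 higher and 2 lower, against 7.47% and 4.67% of all genes. Its counts include Cd4, which rose to 281 in stimulated CD8 cells, against 25.9 in resting ones, together with the CD4 lineage factor gene Zbtb7b (1914 stimulated, 789 resting). Stimulated and resting Th2 cells had 20061 and 21518 for Cd4. Of the 7 CD4 T cell markers 5 passed the minimum mean, of which Cd4, Zbtb7b and Cd40lg rose and Gata3 (68.7 stimulated, 104 resting) and Ctla4 stayed within 2-fold. Foxp3 (5.93 stimulated, 7.26 resting) and Il4 (41.5 stimulated, 4.15 resting) were under it. With actinomycin D, stimulated and resting CD8 cells had 33.8 and 30.5 for Cd4. The part of contaminating CD4 cells in the Cd4 difference was not tested. Nor was it tested for genes such as Il2 and Il3, which had 23234 and 7537 in stimulated Th2 cells.

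Genes of the JAK, STAT and SOCS families went both ways, with 3 of 20 higher and 3 lower, against 7.47% and 4.67% of all genes. Cish, a STAT5-induced inhibitor, had 7414 in stimulated and 707 in resting cells (10.5-fold), Stat5a had 6567 in stimulated and 1483 in resting cells, and Jak2 had 19268 in stimulated and 3974 in resting cells. Socs2 fell to 626, against 1952 in resting cells, and Stat2 was also among those that fell. The receptor genes Il12rb1 (7914 stimulated, 2235 resting), Il21r (9605 stimulated, 3622 resting) and Il4ra (3838 stimulated, 1685 resting) rose, and of 26 receptor chain genes 5 rose and none fell, against 7.47% and 4.67% of all genes. Il2ra, the high-affinity chain of the IL-2 receptor, had 205739 in stimulated and 136727 in resting cells, ranked 11 and 14 per kilobase of exon, and differed by 0.59 on the log2 scale.

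Homing and adhesion genes went both ways. Against 7.47% of all genes that rose and 4.67% that fell, 2 of 9 chemokine receptor genes rose and 4 fell. Of 20 integrin and adhesion genes 3 rose and 1 fell, the latter near the share of all genes. S1pr1, the receptor through which T cells leave lymphoid tissue, had 274 in stimulated and 3288 in resting cells and was 12.01-fold lower (10.5 to 13.8). The chemokine receptor genes Ccr7 (862 stimulated, 1868 resting), Cxcr4 (712 stimulated, 1508 resting), Cxcr3 (869 stimulated, 1861 resting) and Ccr4 (239 stimulated, 618 resting) were each 2.12-fold to 2.58-fold lower, while Ccr2 (3689 stimulated, 3525 resting) and Cxcr6 (9550 stimulated, 10323 resting) stayed within 2-fold and Ccr1 (292 stimulated, 103 resting) and Ccrl2 (77.05 stimulated, 33.2 resting) rose. Itga4, encoding the α4 integrin chain used to enter inflamed tissue and gut, fell 5.95-fold to 1648, against 9802 in resting cells. Icam1 (8034 stimulated, 1718 resting), Cd44 (24897 stimulated, 7416 resting) and Itga5 (557 stimulated, 188 resting) rose.

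Some genes known to restrain growth were among the 20 largest falls, and others rose. Pik3ip1, an inhibitor of PI3 kinase, had 67.6 in stimulated and 853 in resting cells (12.6-fold lower, 9.65 to 16.8). Txnip, which limits glucose uptake, had 868 in stimulated and 9081 in resting cells (10.5-fold lower). Cdkn1b, encoding the cell cycle inhibitor p27, had 830 in stimulated and 3784 in resting cells (4.56-fold lower), and Bmf, encoding a pro-death BCL2 family member, had 84.2 in stimulated and 582 in resting cells (6.91-fold lower). The glucocorticoid-induced gene Tsc22d3 had 345 in stimulated and 1026 in resting cells. The antiproliferative gene Btg2 rose to 7554 in stimulated cells, against 2990 in resting cells. Of 25 quiescence and homing genes 6 fell and 2 rose, against 4.67% and 7.47% of all genes. Those that rose were Slfn2 (11128 stimulated, 2229 resting) and Btg1 (8429 stimulated, 2773 resting). Klf2, at 37.9 in stimulated and 64.3 in resting cells, was already low at rest.

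The largest fall of all genes tested belonged to Tet1, an enzyme that oxidises methylated cytosine. It had 17.8 in stimulated and 463 in resting cells, 26.1-fold lower, and lies just below the mean of 250 set for the list of largest falls. Its relative Tet3 rose (6401 stimulated, 2888 resting), as did the DNA methyltransferase gene Dnmt3a (7916 stimulated, 1999 resting, 3.96-fold), while Dnmt1 had 11756 in stimulated and 14145 in resting cells. Other genes among the 20 largest falls included St8sia4, a polysialyltransferase, with 890 in stimulated and 4745 in resting cells (5.33-fold lower), the polycomb-type gene Scml4 with 72.3 in stimulated and 517 in resting cells, and the kinase gene Sbk1 with 108 in stimulated and 596 in resting cells. Idh1, encoding cytosolic isocitrate dehydrogenase, had 306 in stimulated and 1072 in resting cells, the amino acid transporter gene Slc43a2 had 251 in stimulated and 930 in resting cells, and the centriole gene Cep97 had 440 in stimulated and 1607 in resting cells. Fam64a (133 stimulated, 733 resting), Fam117a (91.3 stimulated, 517 resting), Fam214a (162 stimulated, 781 resting) and Arhgef39 (105 stimulated, 422 resting) were also in that group, as was the deubiquitinase gene Usp49 (151 stimulated, 537 resting), of whose 50-nt words 49.3% are shared with other genes.

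Many mitotic genes were lower in stimulated cells. Of 61 genes of the mitotic spindle, kinetochore and cytokinesis, 26 fell and none rose, against 4.67% and 7.47% of all genes. Of the 61, 4 lay above 0 on the log2 scale, and the median was -0.81, against 0.03 for all genes. Cenpf, encoding a kinetochore protein, had 1043 in stimulated and 5516 in resting cells (5.29-fold lower). Aspm had 1183 in stimulated and 4134 in resting cells, Cenpe 2086 stimulated and 6132 resting, and Mki67, the proliferation marker Ki-67, 21757 stimulated and 54812 resting (2.52-fold lower). Pttg1, encoding securin, was at 971 in stimulated and 805 in resting cells. DNA replication genes did not follow past the limit: none of 56 rose or fell, against 7.47% and 4.67% of all genes. Their median was -0.25, with Dck lowest at -0.998 and Pold2 highest at 0.50.

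G1 regulators went in both directions. The D cyclin gene Ccnd2 had 39235 in stimulated and 19043 in resting cells, and the inhibitor gene Cdkn1a had 24103 in stimulated and 10771 in resting cells, both slightly over 2-fold. Ccna2 (5285 stimulated, 11238 resting), E2f2 (2089 stimulated, 4552 resting) and Rbl1 (2115 stimulated, 4896 resting) fell. Myc, which drives growth, had 12367 in stimulated and 3854 in resting cells (3.21-fold), while its antagonist genes Mxd3 (58.1 stimulated, 219 resting) and Mxd4 (467 stimulated, 951 resting) fell and Mxd1 (3653 stimulated, 997 resting) rose.

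All 68 ribosome biogenesis genes measured were above 0 on the log2 scale, with a median of 0.46. Only 5 passed 2-fold, near the 7.47% of all genes that rose, led by Ppan (2181 in stimulated and 664 in resting cells) and Rrp9 (1472 stimulated, 588 resting). With scaling to the ribosomal protein genes that median was 0.05, against -0.38 for all genes. Cytosolic ribosomal protein genes held 2.18% of all values in stimulated and 1.84% in resting cells. Of 79 such genes 11 rose, against 7.47% of all genes, and 8 of the 11 had more than 20% of their 50-nt words shared with other genes. Aminoacyl-tRNA synthetase genes had a median of 0.00, and none of 21 rose or fell, against 7.47% and 4.67% of all genes. Glycolysis genes had a median of 0.27. Hk2, encoding the inducible hexokinase, was the only one of 22 to rise (10523 stimulated, 4655 resting), against 7.47% of all genes. The glucose transporter gene Slc2a3 had 26957 in stimulated and 9913 in resting cells and Slc1a5, for glutamine, 16911 stimulated and 7386 resting. The medians of the synthetase and glycolysis lists turned negative with scaling to the ribosomal protein genes (-0.41 and -0.14).

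Bcl2l1, encoding the survival protein BCL-xL, had 8772 in stimulated and 1163 in resting cells (7.54-fold), while Bcl2 (3807 stimulated, 6298 resting) and Mcl1 (14967 stimulated, 9265 resting) stayed within 2-fold. The pro-death gene Pmaip1 (8678 stimulated, 3225 resting) rose as well. Pim1 (19468 stimulated, 5084 resting) and Pim3 (2263 stimulated, 322 resting), kinases that promote survival, rose 3.83-fold and 7.02-fold. Plk3 had 1515 in stimulated and 134 in resting cells, and Gadd45b had 987 in stimulated and 227 in resting cells, whereas Trp53inp1, a p53 target, fell to 2258 in stimulated cells, against 15122 in resting cells (6.70-fold lower).

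Of 37 interferon-induced genes measured, 6 fell and 2 rose, against 4.67% and 7.47% of all genes, with a median of -0.37. Stat2 (440 stimulated, 898 resting), Igtp (4968 stimulated, 11789 resting) and Ifit2 (111 stimulated, 360 resting) were among those that fell, and Cxcl10 and Isg15 (79.4 stimulated, 29.03 resting) rose. Scd2, a fatty acid desaturase gene that ranked 27 per kilobase of exon in resting cells, fell to 41567 in stimulated cells, against 92908 in resting cells, and Abcg1, a cholesterol exporter, fell to 120, against 456.

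**Figure D3:**
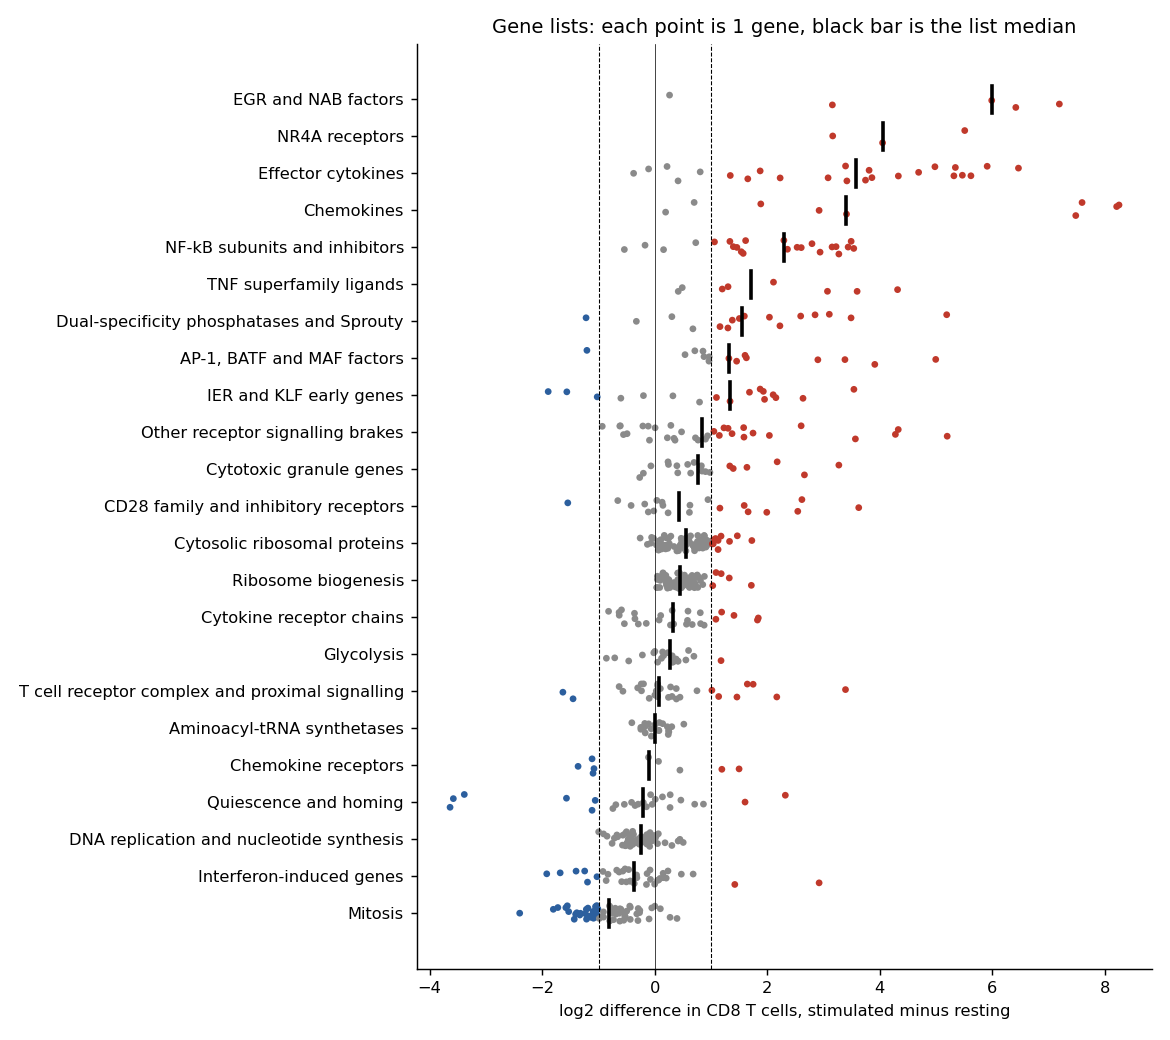
Log2 differences in CD8 T cells, stimulated minus resting, for the measured members of 23 of the 50 gene lists, 1 point per gene, with the list median as a black bar. Red points rose at least 2-fold and blue points fell at least 2-fold, and the medians of the lists shown range from 5.99 for EGR and NAB factors to -0.81 for mitotic genes.

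RNA decay factors passed 2-fold no more often than all genes, with 2 of 33 higher and 1 lower, against 7.47% and 4.67%. Zc3h12a, encoding Regnase-1, had 1112 in stimulated and 201 in resting cells (5.53-fold), while Zfp36 (1100 stimulated, 722 resting) and Rc3h2 (5233 stimulated, 3253 resting) stayed within 2-fold. The AU-rich nonamer TTATTTATT, an element bound by ZFP36 proteins, was counted in the annotated 3′ UTRs. It occurred in 98 of 752 genes that rose (13.03%), 41 of 453 that fell (9.05%) and 868 of 10191 tested (8.52%). Median 3′ UTR lengths were 1090, 1613 and 1208 bases for genes that rose, genes that fell and all genes, and nonamers per 10 kb were 1.17, 0.526 and 0.698. The shorter pentamer ATTTA occurred 1.84, 1.70 and 1.84 times per kb. Nonamers were most numerous in Tnf (5) and Csf2 (4) among the genes that rose.

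Some nonamers lay within GCLiPP peaks, which are 70-nt windows of RNA bound by any protein, called on all GCLiPP libraries pooled and so not specific to CD8 cells. The sites below are nonamers (in capitals) with flanking bases in mm10, printed for genes that rose and written as DNA.
Rgs16 site (chr1:153745330-153745358, plus strand): gtgttaatatTTATTTATTgttaacaaag
Lta site (chr17:35203396-35203424, minus strand): aaaagttaagTTATTTATTtatagagaat
Cd4 site (chr6:124866019-124866047, minus strand): ccccatcagcTTATTTATTcttcgctgct
Cish site (chr9:107301377-107301405, plus strand): tatacagtatTTATTTATTtattctcctt
Rel site (chr11:23737834-23737862, minus strand): ctcccagactTTATTTATTttttttagct
Pim1 site (chr17:29495697-29495725, plus strand): atttatttatTTATTTATTtggttgcctt

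The peaks over these sites had deposited scores of 34 in Rgs16, 37 in Lta, 41 in Cd4, 47 in Cish, 14 in Rel and 147 in Pim1, a unit whose meaning is not given in the sources used here. A GCLiPP peak was listed for 507 of the 801 genes that rose (63.3%), for 163 of the 501 that fell (32.5%) and for 6430 of the 10727 tested (59.9%). The median stimulated values of these sets were 1226, 165 and 989 and the resting values 352, 438 and 927, and the part of RNA level in these shares was not tested.

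Th2 cells responded to the same stimulus with a broad overlap of genes. The Th2 and CD8 changes share no library. Of the same 10727 genes, 1022 were at least 2-fold higher (9.53%) and 942 at least 2-fold lower (8.78%) in stimulated than in resting Th2 cells. Of the 801 genes that rose in CD8 cells, 492 rose in Th2 cells too (61.4% of the CD8 list and 48.1% of the Th2 list), 5 fell and 304 stayed within 2-fold. Of the 501 that fell in CD8 cells, 341 fell in Th2 cells (68.1% and 36.2%) and 3 rose. The median change of the genes that rose was 1.56 in CD8 and 1.24 in Th2 cells on the log2 scale, and of those that fell -1.27 and -1.33. These genes were picked by their CD8 change, which bounds the CD8 medians but not the Th2 ones, so the medians do not compare the strength of the responses. No replicate was at hand to test a difference between the cell types.

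Several CD8 changes had no counterpart of that size in Th2 cells. The retinoid receptor gene Rxra had 2554 in stimulated and 148 in resting CD8 cells, against 4039 and 2711 in stimulated and resting Th2 cells. For Lta, CD8 cells had 15158 in stimulated and 1081 in resting cells and Th2 cells 2252 stimulated and 1517 resting. For Nfkbiz, CD8 cells had 2129 in stimulated and 189 in resting cells and Th2 cells 1535 stimulated and 1081 resting. In each of these 3 genes the resting Th2 level was the higher of the resting levels. Mmp9 (5284 stimulated, 232 resting) and Ptrf (631 stimulated, 17.6 resting), which encodes a coat protein of caveolae, were low in Th2 cells in both states, with 82.7 stimulated and 32.7 resting for Mmp9 and 26.05 stimulated and 21.02 resting for Ptrf. Zbtb46, a zinc finger factor known from dendritic cells, had 1051 stimulated and 11.4 resting in CD8 cells and 212 stimulated and 28.03 resting in Th2 cells. Nol4l (3262 stimulated and 234 resting in CD8 cells, 702 stimulated and 568 resting in Th2 cells) and Asb2 (1305 stimulated and 62.2 resting in CD8 cells, 2688 stimulated and 1363 resting in Th2 cells) changed in the same direction with a smaller difference in Th2 cells. Xcl1 rose in both, with 35.1 stimulated and 0.779 resting in Th2 cells, as did Egr3, with 817 stimulated and 41.3 resting in Th2 cells, each by less than in CD8 cells.

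Other genes responded less in CD8 than in Th2 cells. Il2 had 557 in stimulated and 10.4 in resting CD8 cells, against 23234 stimulated and 17.9 resting in Th2 cells, and Il3 had 226 in stimulated and 4.15 in resting cells, against 7537 stimulated and 6.23 resting in Th2 cells. Spry1 rose in both, with 517 stimulated and 110 resting in CD8 cells and 4529 stimulated and 128 resting in Th2 cells, as did Plek (4422 stimulated and 1644 resting in CD8 cells, 8723 stimulated and 520 resting in Th2 cells). Calcrl, a receptor subunit for the peptide CGRP, stayed within 2-fold in CD8 cells (1149 stimulated, 963 resting) and rose in Th2 cells (38504 stimulated, 5068 resting). Ifi203 (1080 stimulated and 801 resting in CD8 cells, 1231 stimulated and 74.0 resting in Th2 cells) and Ggct (263 stimulated and 340 resting in CD8 cells, 2351 stimulated and 259 resting in Th2 cells) rose in Th2 cells and stayed within 2-fold in CD8 cells. Trp53inp1 had 15208 stimulated and 12495 resting in Th2 cells, with no fall. Mitotic genes fell past 2-fold in both, 26 of 61 in CD8 and 43 of 61 in Th2 cells, against 4.67% and 8.78% of all genes. Their medians were -0.81 and -1.30. Ribosome biogenesis genes rose past 2-fold in 5 of 68 in CD8 and 39 of 68 in Th2 cells, against 7.47% and 9.53% of all genes.

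**Figure D4:**
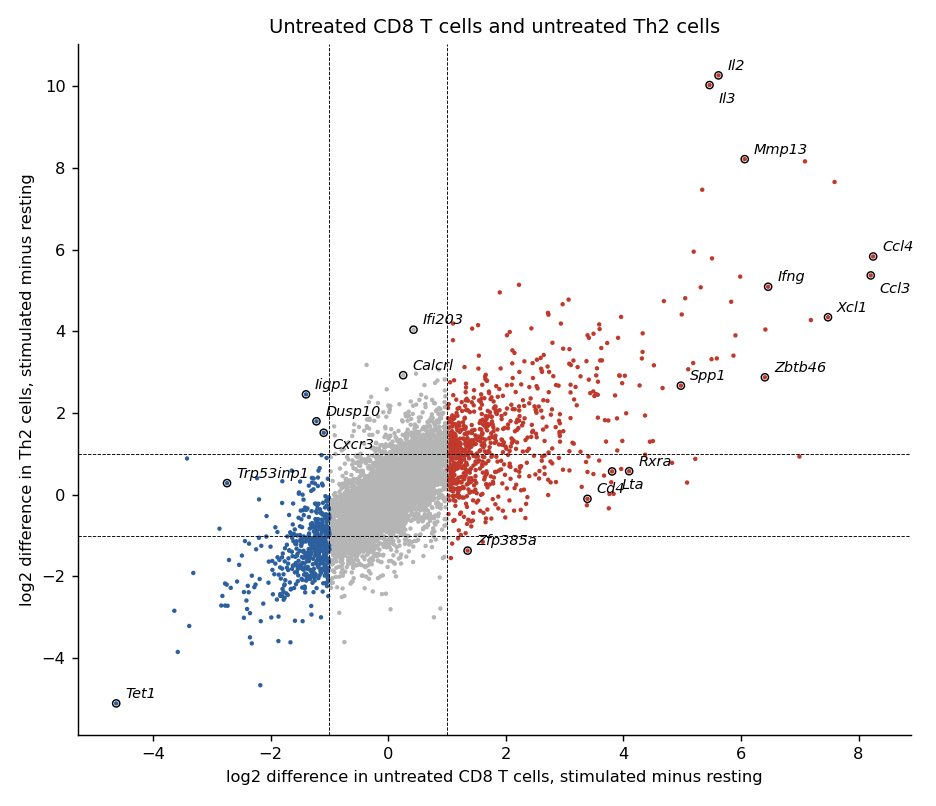
Log2 difference, stimulated minus resting, in untreated CD8 T cells (x axis) and untreated Th2 cells (y axis) for the 10727 genes tested in CD8 cells, with 2-fold marked by dashed lines. Genes that rose in CD8 cells are red and those that fell are blue, and Il2 (5.62 in CD8 cells and 10.26 in Th2 cells) and Il3 (5.47 and 10.03) stand highest on the y axis.

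With actinomycin D few genes passed 2-fold. Of the same genes 122 were at least 2-fold higher (1.14%) and 24 at least 2-fold lower (0.224%) in stimulated than in resting CD8 cells given the drug. Of the 801 genes that rose without the drug, 72 rose with it (8.99%) and 8 fell, and of the 501 that fell, 3 fell and 2 rose. The median changes were 0.09 and 0.04 on the log2 scale. As the methods place the drug after the stimulus, these values do not measure a response to the stimulus under the drug. Resting CD8 values did not all drop with the drug. Egr1 had 1956 with and 76.7 without it, Lta 6119 and 1081, and Ifng 3445 and 993. By contrast, S1pr1 had 769 with and 3288 without it, and Txnip 2708 and 9081. The source of these differences was not tested. The drug libraries share no sample with the untreated ones. Their labels give the same preparation on oligo-dT beads, whereas the methods for RNA decay name a Trizol LS lysis, so that preparation and drug cannot be told apart.

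A set of cytokine and early genes kept a difference between stimulated and resting cells in the presence of the drug. On the log2 scale Pim3 differed by 3.84 with the drug and 2.81 without it, Hbegf by 3.62 and 4.69, and Il10 by 3.33 and 3.86. Plk3 differed by 3.24 and 3.49, and Il24 by 2.53 and 3.08. The difference was much smaller with the drug for Ifng (3.18 and 6.46), Egr2 (3.15 and 6.42), Ccl4 (2.91 and 8.25) and Rgs16 (2.66 and 5.20). For Ifng the drug libraries had 31214 in stimulated and 3445 in resting CD8 cells. Others were within 2-fold with the drug: Il2 changed by -0.28, Spp1 by -0.01, Nr4a1 by -0.04, Rel by -0.07 and Egr3 by 0.51. Among genes that fell without the drug, S1pr1 changed by -0.06, Pik3ip1 by -0.16, Txnip by 0.47 and Cdkn1b by -0.14 with it. By list, 11 of 24 cytokine genes, 3 of 9 chemokine genes and 2 of 23 NF-κB genes were at least 2-fold higher with the drug, against 1.14% of all genes.

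**Figure D5:**
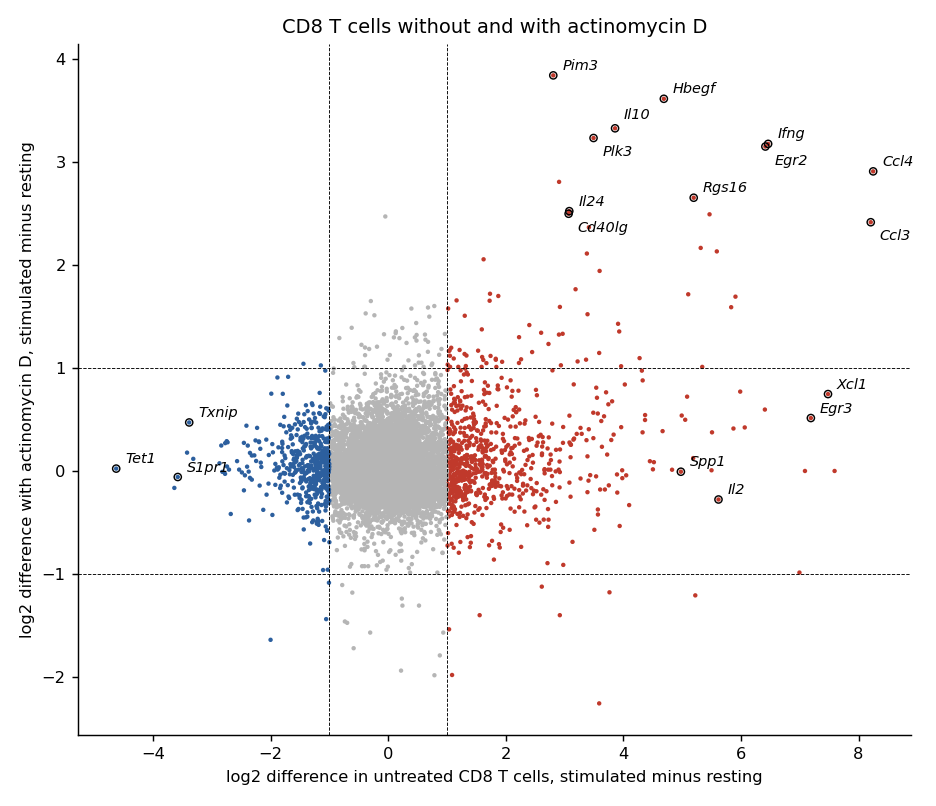
Log2 difference, stimulated minus resting, in CD8 T cells without (x axis) and with actinomycin D (y axis) for the same 10727 genes, with 2-fold marked by dashed lines and colours by the change without the drug. The cloud is flat on the y axis, and the labelled genes at the upper right, such as Pim3 at 3.84 and Hbegf at 3.62 with the drug, are the ones that kept a difference.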

How the data were processed

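Per the labels and the study's methods, the authors sequenced polyadenylated RNA with a stranded kit and aligned reads with STAR to mm10; the counting tool, annotation and strand setting are not stated. The deposited RNA-seq signal of a gene proved to be its read count over a single scaling factor for each library, with no scaling by length, although the methods describe FPKM. Whole reads were recovered from the step of each library, with a largest deviation of 4.09e-05 read over the CD8 libraries. A second table held the same values in 8 columns and the authors' own fold changes in 12 columns, neither of which was used. For the GCLiPP peaks (27729), the authors aligned reads with Bowtie2, pooled all experiments and deposited a score per peak.

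Stimulated minus resting differences were taken on log2(value + 1) for genes with a mean of at least 50, and 2-fold was the limit for a call. There was 1 library per condition, so no test was run. Genes were named by rule: the 20 largest rises and falls with a mean of at least 250 outside predicted genes, described members of 50 gene lists, genes at the limits, and the 10 furthest above and below the Th2 change with a mean of at least 250 over the 4 untreated libraries. Genes and lists were chosen with earlier results of these data known. Intervals were exact (95%, from recovered reads). Exon lengths, overlaps, shared words of 50 nt and 3′ UTRs came from GENCODE M21 on GRCm38, and promoters from RefSeq. Alternatives were another pseudocount (10), minimum means of 10 and 250, no filter, and scaling to the total, by TMM (edgeR 4.0.16, scaling only), by median ratios, to ribosomal protein genes and by quantiles. Python 3.11.15, pandas 2.3.3, scipy 1.17.1 and R 4.3.3 were used, and the code was tested on simulated data. A few genes that enter the list counts are not reported here by name.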

Additional observations from a re-analysis of the deposited data

Results flagged for a closer look

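In 8 genes the CD8 and Th2 libraries moved past 2-fold in opposite directions on stimulation, and with 1 library per condition these differences were not tested. Il4ra, encoding a chain of the IL-4 receptor, had 3838 in stimulated and 1685 in resting CD8 cells, against 10837 and 22743 in stimulated and resting Th2 cells, so that the CD8 change exceeded the Th2 change by 2.26 on the log2 scale. Rragd, a GTPase that signals amino acid supply, exceeded it by 2.62 (1224 stimulated and 585 resting in CD8 cells, 230 stimulated and 676 resting in Th2 cells), Zfp385a by 2.72, Nipal1 by 2.28 and 4930431P03Rik by 2.76, the last with 77.0% of its 50-nt words shared with other genes. In the opposite direction the change in CD8 cells minus that in Th2 cells was -2.61 for Cxcr3, a chemokine receptor (869 stimulated and 1861 resting in CD8 cells, 2094 stimulated and 732 resting in Th2 cells), -3.02 for Dusp10, a MAP kinase phosphatase (115 stimulated, 270 resting, against 1370 stimulated and 394 resting in Th2 cells), and -3.86 for Iigp1, an interferon-induced GTPase (98.4 stimulated, 261 resting, against 359 stimulated and 64.6 resting in Th2 cells).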

How the results depend on the processing

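With 1 library per condition, no replicate could be left out. No paired analysis was possible because each condition had a single library, so that no second pair existed. The count of genes at least 2-fold higher was 772, 1130, 575, 630, 777, 753 and 734 with a pseudocount of 10, a minimum mean of 10, one of 250, scaling to the total, TMM, median ratios and quantiles, and moved furthest with no filter (3140, where single reads can pass 2-fold) and with scaling to ribosomal protein genes (459). The count of lower genes was 453, 733, 528, 553 and 573 with the pseudocount of 10, the total, TMM, median ratios and quantiles, and 824, 272, 2923 and 1382 with a minimum mean of 10, one of 250, no filter and ribosomal protein scaling. Higher genes made up 61.5% of those past 2-fold, 46.2% with scaling to the total and 24.9% with ribosomal protein scaling, against 51.8% to 67.9% in the other settings. Of 343 named or listed genes recomputed, 275 never changed side of the 2-fold limit and none moved past 2-fold in the opposite direction. Depth limits genes with few resting reads, such as Xcl1, whose interval spans 90.9 to 657.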

Other observations

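Zinc finger genes with Zfp names, many of which encode DNA-binding repressors, had a median below that of all genes. Of 261 measured, 16 fell and 9 rose, against 4.67% and 7.47% of all genes, and 35.6% lay above 0 on the log2 scale, against 52.3% of all genes, with a median of -0.17 against 0.03. In Th2 cells 27 of the 261 fell and 11 rose, against 8.78% and 9.53% of all genes, with a median of -0.21. Mitochondrially encoded RNAs had 3 of 12 lower and none higher, against 4.67% and 7.47% of all genes. Among those lower was mt-Nd6, a protein-coding gene transcribed from the opposite strand to the others, with 891 in stimulated and 2417 in resting CD8 cells.

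Class II genes did not move together. Cd74, the invariant chain, had 699 in stimulated and 145 in resting CD8 cells, while H2-Ab1 had 680 in stimulated and 555 in resting cells, and H2-Aa (32.004 stimulated, 14.5 resting), H2-Eb1 (34.4 stimulated, 44.6 resting) and Ciita (2.37 stimulated, 7.26 resting) were low in both. Klrb1c, encoding NK1.1, had 172 in stimulated and 53.9 in resting cells, while of the other NK cell genes Fcer1g (139 stimulated, 99.5 resting) and Itga2 (96.01 stimulated, 94.3 resting) stayed within 2-fold and Ncr1 (2.37 stimulated, 1.04 resting) and Tyrobp (5.93 stimulated, 11.4 resting) were near 0.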
